A study of Mus musculus with 4 samples.

Results

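The Cdk inhibitor genes are the 7 mouse genes whose proteins bind and restrain the cyclin-dependent kinases, namely Cdkn1a, Cdkn1b and Cdkn1c of the Cip/Kip family and Cdkn2a, Cdkn2b, Cdkn2c and Cdkn2d of the Ink4 family. Their members were chosen by symbol, and all 14 of their probes among the 45281 on the array were read. Of these, 12 were detected on at least 1 array, at a detection p-value below 0.01, which places all 7 genes among the 12615 genes analysed. Cip/Kip genes have 7 probes, 5 of them detected, and Ink4 genes have 7 probes, all detected.

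Arrays were Illumina MouseWG-6 v2.0 BeadChips, on which each probe is read from many beads, and there were 4 of them, 1 for each group of murine embryonic fibroblasts (MEFs) of mixed FVB and 129 strain. Parental MEFs carry a floxed Rb gene on both alleles and received 2 treatments of 1 hr, 3 hr apart, with a solution without TAT-Cre, followed by medium without virus. Rb-deleted MEFs received TAT-Cre, a recombinase that enters cells, and the same virus-free medium. WT Rb-HA MEFs received TAT-Cre and a retrovirus for wild-type Rb, and ΔCdk Rb-HA MEFs received TAT-Cre and a retrovirus for a form of Rb that Cdks cannot phosphorylate. Per the study's methods, all 4 cultures were contact inhibited for 48 hr, released for 4 hr and then treated with doxorubicin, which damages DNA, at 100 ng/ml for 3 hr. No array of untreated cells and none of cells with an empty retrovirus was analysed here, so that Rb deletion cannot be told apart from exposure to TAT-Cre, nor an Rb protein from infection.

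Background for these genes is as follows. Cyclin D pairs with Cdk4 or Cdk6 early in G1 phase and cyclin E with Cdk2 later, and both phosphorylate Rb, which in its active state holds E2F transcription factors in check. Ink4 proteins bind Cdk4 and Cdk6 themselves, whereas Cip/Kip proteins bind whole cyclin and Cdk complexes, chiefly those of Cdk2. Cdkn2a is unusual, since 2 promoters with 2 first exons give p16Ink4a, a true Ink4 protein, and p19Arf, which is read in another frame, does not bind Cdks and stabilises p53. In cultured MEFs, the locus is known for its rise as cells are passaged.

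Each group has 1 array, so that no difference has a replicate check, no test was made and no p-value is given for any difference. Errors below are bead standard errors, which cover the spread between beads of 1 array only, not that from culture to culture or array to array. A difference is called larger than bead error only where it exceeds 2 of them. Intensity is the deposited value in arbitrary units, and a log2 ratio compares background-corrected and normalized values of the same probe on 2 arrays. A gene, read from its brightest probe, was counted as changed if it passed 1.6-fold, a log2 ratio of 0.68, which is the filter of the study. Levels of different probes are not compared, because probes differ in how strongly they bind.

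Arrays were alike in depth, with mean intensities of 335.7 to 345.8, between 15950 and 16740 probes detected and a median of 44 beads per probe on each. The deleted gene, Rb1, read 543 in parental, 160 in Rb-deleted, 181 in WT Rb-HA and 170 in ΔCdk Rb-HA MEFs, at the probe at transcript position 4421. Its other probe, at 4002, read 108, 56.7, 51.1 and 52.9, was detected on only 2 of the 4 arrays and was near background outside parental MEFs. At 4421 the infected cultures lay near the level of the deletion, above it by log2 ratios of 0.19 (bead standard error 0.08) with WT Rb-HA and 0.13 (0.08) with ΔCdk Rb-HA. These probes thus show little or no Rb from a retrovirus. Whether the viral transcripts hold the sequence of these probes is not given in the sources used here. The labels for the retroviruses were thus not checked by these probes. At the protein level, the paper reports an immunoblot in which both Rb-HA forms replaced the deleted Rb at physiologic levels. All 10 fibroblast markers were detected on all 4 arrays. In ΔCdk Rb-HA MEFs their median log2 ratio was -0.40 relative to parental, with 7 of 10 below it, -0.19 relative to Rb-deleted MEFs, with 8 of 10 below, and -0.24 relative to WT Rb-HA MEFs, with 9 of 10 below. This shift runs along with the values of ΔCdk Rb-HA MEFs below, and its part in them was not tested. Of 18 macrophage and leukocyte markers, 14 were analysed, and their summed intensity was 11890 on the parental array compared to 5834 to 7386 on the others. Of these 14, 13 were detected on all 4 arrays, and between 10 and 12 were lower past 1.6-fold compared to parental. The other listed markers, Ptprc, Lyz1, Fcer1g and Itgam, were detected nowhere. The leukocyte shift runs along with every difference from the parental array below, and its part in them was not tested. In such bulk samples, fewer cells of a type and less RNA per cell cannot be told apart.

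**Figure D1:**
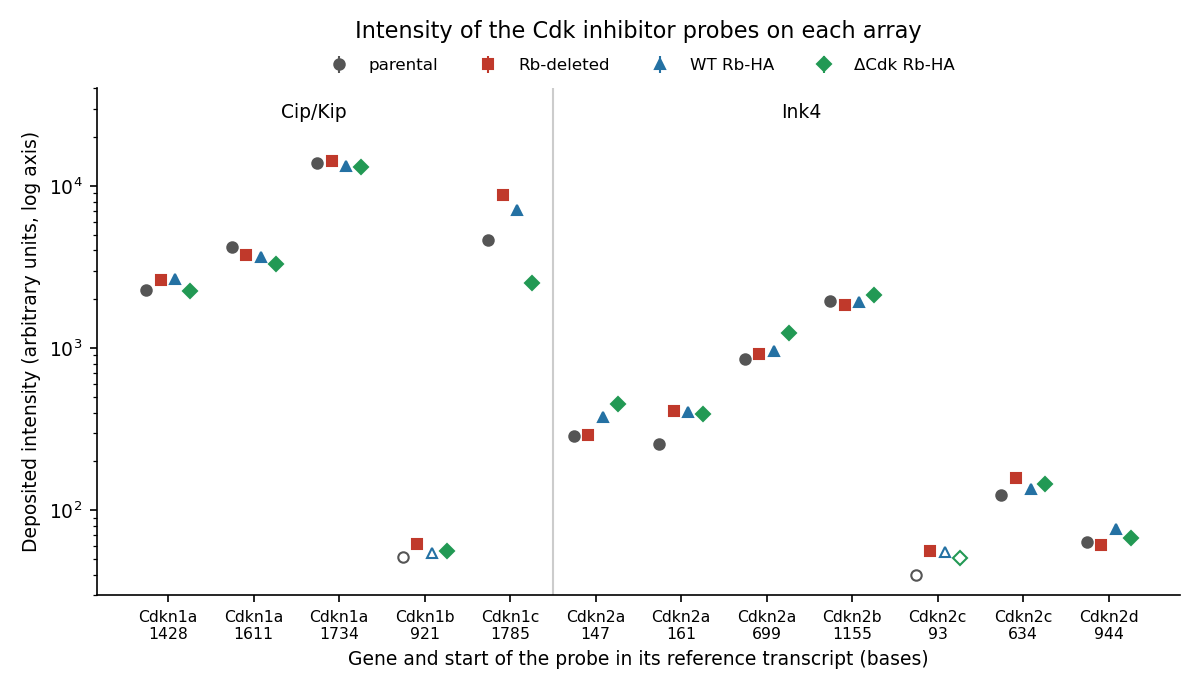
Deposited intensity (vertical axis, arbitrary units, log scale) of the 12 detected probes of the Cdk inhibitor genes (horizontal axis, with the probe's start in its reference transcript) on the 4 arrays. Error bars are bead standard errors, mostly smaller than the symbols, and open symbols are arrays on which the probe was not detected. Cdkn1c spreads from 2504 to 8789, while the brightest probe of Cdkn1a stays between 13000 and 14200.

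Cdkn1c moved most among the genes when each was read from its brightest probe, while Cdkn2a, taken up below, passed the filter at other probes. Cdkn1c encodes p57Kip2, which restrains cyclin E and cyclin A kinases during development, and in mouse it is an imprinted gene expressed from the maternal chromosome 7. Its probe, at transcript position 1785, read 4613 in parental MEFs (bead standard error 87.5), 8789 in Rb-deleted (145), 7049 in WT Rb-HA (140) and 2504 in ΔCdk Rb-HA MEFs (45.8). Rb-deleted MEFs were thus highest and ΔCdk Rb-HA MEFs lowest, and the parental level lay between them.

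Relative to parental, Cdkn1c in Rb-deleted MEFs had a log2 ratio of 0.95 (bead standard error 0.03), a 1.93-fold increase. In WT Rb-HA MEFs it was 0.63 (0.04), or 1.55-fold, just under the filter. ΔCdk Rb-HA MEFs fell below parental, at -0.85 (0.04), a level 1.80-fold lower. WT Rb-HA and Rb-deleted MEFs lay 0.32 apart (0.04), with WT Rb-HA the lower by less than 1.6-fold. ΔCdk Rb-HA MEFs were lower than Rb-deleted MEFs by 3.46-fold, at -1.79 on the log2 scale (0.03), and lower than WT Rb-HA MEFs by 2.78-fold, at -1.48 (0.05). Each step in the order from Rb-deleted to WT Rb-HA, parental and ΔCdk Rb-HA was larger than bead error, at 8.4, 15.9 and 22.8 bead standard errors.

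Read from the brightest probe, Cdkn1c was the only member past 1.6-fold in any of the 6 comparisons between arrays. Compared to parental, that is 1 of 7 genes higher in Rb-deleted MEFs, where 5.12% of all genes passed the filter in either direction. In WT Rb-HA MEFs 0 of 7 passed, with 3.35% of all genes, and in ΔCdk Rb-HA MEFs 1 of 7 was lower, with 5.87% of all genes. Between WT Rb-HA and Rb-deleted MEFs 0 of 7 passed, with 1.02% of all genes. ΔCdk Rb-HA MEFs had 1 of 7 lower than Rb-deleted MEFs, with 4.26% of all genes, and 1 of 7 lower than WT Rb-HA MEFs, with 1.85%. Counts of 0 or 1 among 7 cannot be set apart from these shares.

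By size, the fall of Cdkn1c from Rb-deleted to ΔCdk Rb-HA MEFs was exceeded by 4 of the 12615 genes analysed. From its highest to its lowest array it spanned 3.46-fold, and 95 genes spanned more. Among all genes, 1410 (11.2%) spanned more than 1.6-fold over the 4 arrays.

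Genes with the profile most like that of Cdkn1c were sought among the 10836 genes detected on all 4 arrays, as the smallest Euclidean distance between log2 values centred on each gene's own mean. Nearest was Col14a1, a collagen that associates with fibrils, at a distance of 0.17, followed by AW120700 at 0.21 and Dlk1 at 0.28. Dlk1, another imprinted gene, which encodes a membrane protein related to Notch ligands, had an intensity of 13280 in parental, 19310 in Rb-deleted, 16490 in WT Rb-HA and 6218 in ΔCdk Rb-HA MEFs. Col14a1 had intensities of 145.8, 230, 182.7 and 83.72 in the same order. With 4 points per gene, and the genes picked as the nearest of many, these distances are a description only.

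**Figure D2:**
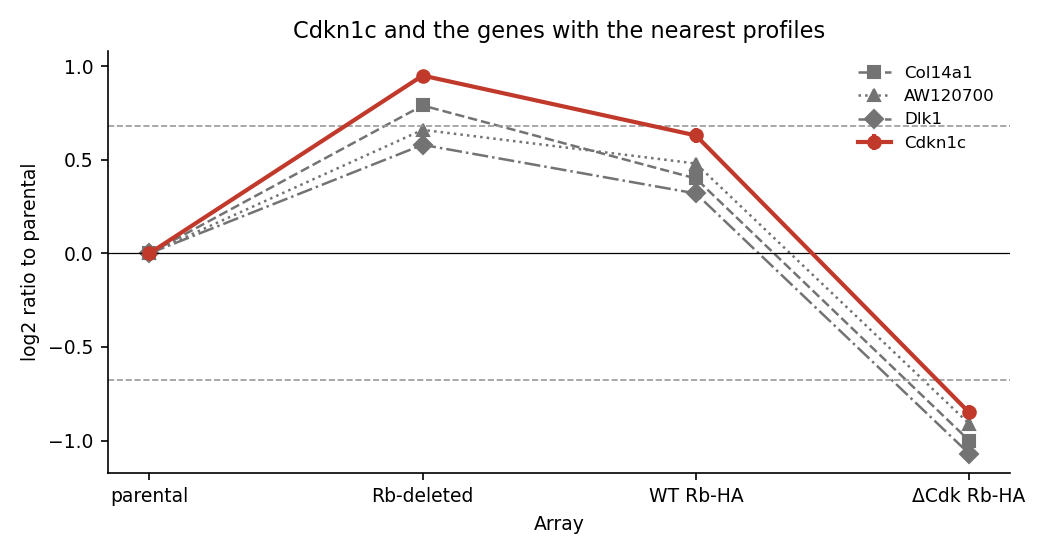
log2 ratio to the parental array (vertical axis) of Cdkn1c and of the 3 genes nearest to it in profile on the 4 arrays (horizontal axis). Bars on Cdkn1c are bead standard errors, and dashed lines mark 1.6-fold. Cdkn1c stands at 0.95, 0.63 and -0.85 and Dlk1 at 0.58, 0.32 and -1.07.

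Neighbours of Cdkn1c in its imprinted stretch of chromosome 7 were counted too. Of 12 such genes on the array 7 were analysed, among them Igf2 and H19, and 0 passed 1.6-fold in any comparison, which cannot be set apart from the 1.02% to 5.87% of all genes that did. Relative to parental, the median of their log2 ratios was 0.07 in Rb-deleted, 0.03 in WT Rb-HA and -0.01 in ΔCdk Rb-HA MEFs, beside medians of 0.02, 0.01 and -0.01 over all genes. In ΔCdk Rb-HA relative to Rb-deleted MEFs, 4 of the 7 were below 0 and 3 above, with a median of -0.16. Lowest there was H19, with values named after they were seen, at -0.65. Relative to parental H19 stood at 0.32, 0.16 and -0.33 on the 3 arrays.

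Cdkn1a encodes p21Cip1, the p53 target that halts cells after DNA damage. It has 3 probes, all detected on all 4 arrays, and their ratios differ in sign. At position 1428 the intensities were 2277 in parental, 2617 in Rb-deleted, 2670 in WT Rb-HA and 2235 in ΔCdk Rb-HA MEFs. The probe at 1611 read 4210, 3743, 3627 and 3310 in that order. Relative to parental its log2 ratios were -0.13 in Rb-deleted (bead standard error 0.10), -0.19 in WT Rb-HA (0.09) and -0.33 in ΔCdk Rb-HA MEFs (0.08). The first of these was within 2 bead standard errors. Its brightest probe, at 1734, spanned 1.13-fold, from 13000 to 14200, and 11013 of the 12615 genes spanned more. No probe of Cdkn1a passed 1.6-fold in any comparison. On all 3 probes ΔCdk Rb-HA MEFs read lower than Rb-deleted MEFs, by 0.18 to 0.21 on the log2 scale, which is 2.4 to 3.5 bead standard errors. With median scaling the difference at the brightest probe shrank to -0.10 (0.05), about 2 bead standard errors.

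Cdkn1b encodes p27Kip1, which holds Cdk2 in check in resting cells and is set largely by protein turnover. Its transcript was close to background here. At position 921 the intensities were 51.42 in parental, 61.72 in Rb-deleted, 54.12 in WT Rb-HA and 56.15 in ΔCdk Rb-HA MEFs. Only the Rb-deleted and ΔCdk Rb-HA arrays counted as detected, and the probes at 2755 and 2809 were detected on none. On the normalized scale, the Rb-deleted value gave lower bounds of 1.17-fold above parental and 1.16-fold above WT Rb-HA MEFs. Both were taken against either the value of the dim probe itself or the lowest detected value of its array, whichever was larger. They do not allow for the bead standard error of the Rb-deleted value, 0.12 on the log2 scale, and are not called larger than bead error. These bounds depend on the background correction: with an offset of 50 the log2 ratio of WT Rb-HA to Rb-deleted MEFs was -0.20, which is smaller than the bound. Between the arrays that detected it, ΔCdk Rb-HA and Rb-deleted, the difference of 0.26 was under 2 bead standard errors.

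Cdkn2a, on chromosome 4, was read at 3 places, and here the result depended on the place. Probe 161, in the first exon of the p19Arf transcript, and probe 147, in the first exon of the p16Ink4a transcript, each belong to 1 of the 2 transcripts. The array table assigns these probes to different transcript variants, and naming variant 1 as p19Arf and variant 2 as p16Ink4a is background knowledge, together with the order of the start sites, and not a column of the table. Probe 699 lies 7.3 kb downstream of probe 147, in the last part of the gene, which both transcripts share. Both first-exon probes are shown because the separation of the 2 transcripts rests on them, 5′ to 3′ as the array table gives them:
Cdkn2a probe 161, p19Arf: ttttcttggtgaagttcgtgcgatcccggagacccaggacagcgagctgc
Cdkn2a probe 147, p16Ink4a: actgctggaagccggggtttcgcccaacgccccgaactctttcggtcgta
They lie in different exons and are similar in GC content, at 58.0% and 62.0%.

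The p19Arf probe read 256.9 in parental MEFs (bead standard error 11.2), 406.3 in Rb-deleted (16), 404.7 in WT Rb-HA (19) and 393.8 in ΔCdk Rb-HA MEFs (16.2). All 3 arrays of cells treated with TAT-Cre thus lay above parental and together. Relative to parental the log2 ratios were 0.75, 0.76 and 0.76 (0.09 each), or 1.69-fold on each array. Other background and scaling methods put them between 0.67 and 0.76, on either side of the filter. Among each other, these 3 arrays differed by 0.00 (0.09).

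By contrast, the p16Ink4a probe read 287.8 in parental MEFs (8.31), 291.1 in Rb-deleted (6.54), 376.6 in WT Rb-HA (12.6) and 453.0 in ΔCdk Rb-HA MEFs (12.7). Rb-deleted and parental MEFs did not differ beyond bead error, WT Rb-HA MEFs were higher and ΔCdk Rb-HA MEFs higher again. In log2 ratios to parental these were 0.06 (0.06), 0.47 (0.07) and 0.79 (0.06). ΔCdk Rb-HA MEFs exceeded Rb-deleted MEFs by 0.73 (0.06), a 1.66-fold difference that lay between 0.67 and 0.73 under the other methods, and WT Rb-HA MEFs by 0.32 (0.07).

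Subtracting the log2 ratio of the p16Ink4a probe from that of the p19Arf probe compares their changes from parental, not the levels of the transcripts. In Rb-deleted MEFs the ratio of the p19Arf probe exceeded that of the p16Ink4a probe by 0.70 (0.11), which is 6.3 bead standard errors. In WT Rb-HA MEFs the gap was 0.28 (0.12), or 2.4 bead standard errors, and in ΔCdk Rb-HA MEFs it was -0.03 (0.11), within bead error. From Rb-deleted to ΔCdk Rb-HA MEFs the gap changed by -0.73 (0.11). For scale, 5.00% of the 17746 probes analysed passed 1.6-fold in either direction in Rb-deleted MEFs compared to parental, 3.40% with WT Rb-HA and 5.90% with ΔCdk Rb-HA, and 4.50% did so between ΔCdk Rb-HA and Rb-deleted MEFs.

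**Figure D3:**
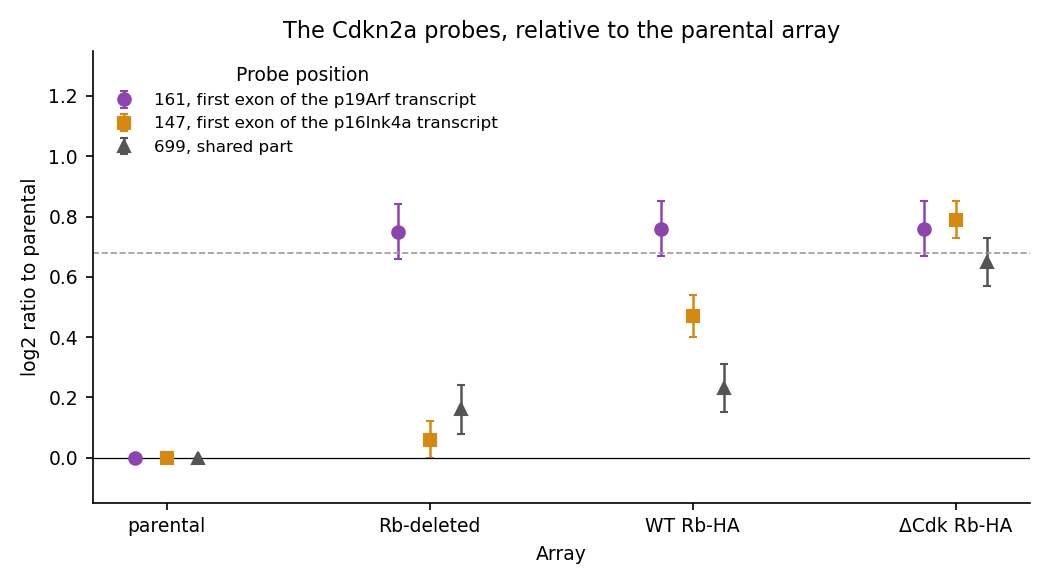
log2 ratio to the parental array (vertical axis) of the 3 Cdkn2a probes on the 4 arrays (horizontal axis), with bead standard errors. The dashed line marks 1.6-fold. The p19Arf probe is at 0.75 to 0.76 on all 3 arrays, while the p16Ink4a probe climbs from 0.06 to 0.47 and 0.79.

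At the shared probe 699, the brightest, intensities were 853.5 in parental, 923.2 in Rb-deleted, 959.4 in WT Rb-HA and 1244 in ΔCdk Rb-HA MEFs. ΔCdk Rb-HA MEFs stood apart, with a log2 ratio to parental of 0.65 (0.08), or 1.56-fold, just under the filter. Rb-deleted and WT Rb-HA MEFs were at 0.16 and 0.23 (0.08 each) and did not differ from each other beyond bead error. On these arrays the shared probe thus rose less than the p19Arf probe, which was at 0.75 and 0.76, and the reason was not tested. By its brightest probe the gene counts as unchanged, although both of its first exons passed the filter on the ΔCdk Rb-HA array and the p19Arf exon did so on all 3 arrays.

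The 2 start sites of Cdkn2a lie 12.4 kb apart, with that of p19Arf upstream. The 250 bases before each are printed for comparison, from RefSeq on build GRCm38.p6, minus strand, 5′ to 3′, and capitals mark an E2F motif:
p19Arf promoter, chr4:89294620-89294869: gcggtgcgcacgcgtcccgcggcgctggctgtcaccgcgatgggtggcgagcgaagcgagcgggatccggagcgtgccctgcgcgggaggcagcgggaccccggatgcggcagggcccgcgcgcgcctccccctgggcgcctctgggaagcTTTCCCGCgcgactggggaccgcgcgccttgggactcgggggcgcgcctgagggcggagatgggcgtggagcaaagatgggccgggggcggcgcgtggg
p16Ink4a promoter, chr4:89282193-89282442: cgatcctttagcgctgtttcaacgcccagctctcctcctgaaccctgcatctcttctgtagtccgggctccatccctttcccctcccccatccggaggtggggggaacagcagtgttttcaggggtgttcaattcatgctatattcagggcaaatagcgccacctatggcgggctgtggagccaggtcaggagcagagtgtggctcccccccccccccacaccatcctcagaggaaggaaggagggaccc

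Windows of 250 bases before to 50 bases after a start site were searched on both strands. The set of RefSeq windows used here holds 9 for 6 of the 7 genes, and happens to lack one for Cdkn1c. An E2F motif, spelled TTTCGCGC, TTTGGCGC, TTTCCCGC or TTTGCCGC, was found in 1 of the 9, the p19Arf window, 99 to 92 bases before the start site. Among all 32851 windows, 744 (2.26%) hold it. GC boxes, spelled GGGCGG, numbered 3 in the p19Arf window and 1 in the p16Ink4a window, and 35.7% of all windows hold at least 1. None of these boxes overlaps the E2F motif. A cyclic AMP response element, TGACGTCA, was found in the Cdkn2b window alone, and 1.79% of all windows hold it. TATAAA, found in 13.6% of all windows, and an unspaced p53 site, found in 3 windows, were in none of the 9. In GC content the p19Arf window was at 77.0% and the p16Ink4a window at 60.3%, beside a median of 52.7% over all windows. A match is a run of letters, not a site shown to be bound, and its absence says nothing about the factor.

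Cdkn2b, the neighbour of Cdkn2a on chromosome 4, encodes p15Ink4b, which is induced by TGF-beta. Its probe had intensities of 1953 in parental, 1849 in Rb-deleted, 1931 in WT Rb-HA and 2128 in ΔCdk Rb-HA MEFs. ΔCdk Rb-HA MEFs were highest, at a log2 ratio to parental of 0.21 (0.05), and the other 3 arrays did not differ beyond bead error.

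Cdkn2c, which encodes p18Ink4c and is a known E2F target, was read at position 634 with intensities of 123.3 in parental, 158.5 in Rb-deleted, 135.1 in WT Rb-HA and 144.7 in ΔCdk Rb-HA MEFs. Rb-deleted MEFs were highest, with a log2 ratio to parental of 0.45 (0.13), and ΔCdk Rb-HA MEFs followed at 0.32 (0.12). No neighbours in the order of the 4 arrays differed beyond bead error. The second probe, at 93, was detected only on the Rb-deleted array, at 56.2, and the bound on its increase from parental is under 1, so that no fold is given.

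Cdkn2d, which encodes p19Ink4d, was dim on every array, with intensities of 63.88 in parental, 60.66 in Rb-deleted, 76.99 in WT Rb-HA and 67.15 in ΔCdk Rb-HA MEFs. WT Rb-HA MEFs were highest and differed from Rb-deleted MEFs by 0.47 on the log2 scale (0.16), the largest difference of this gene, which was 0.30 without background correction and 0.27 with an offset of 50. No neighbours in its order differed beyond bead error.

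**Figure D4:**
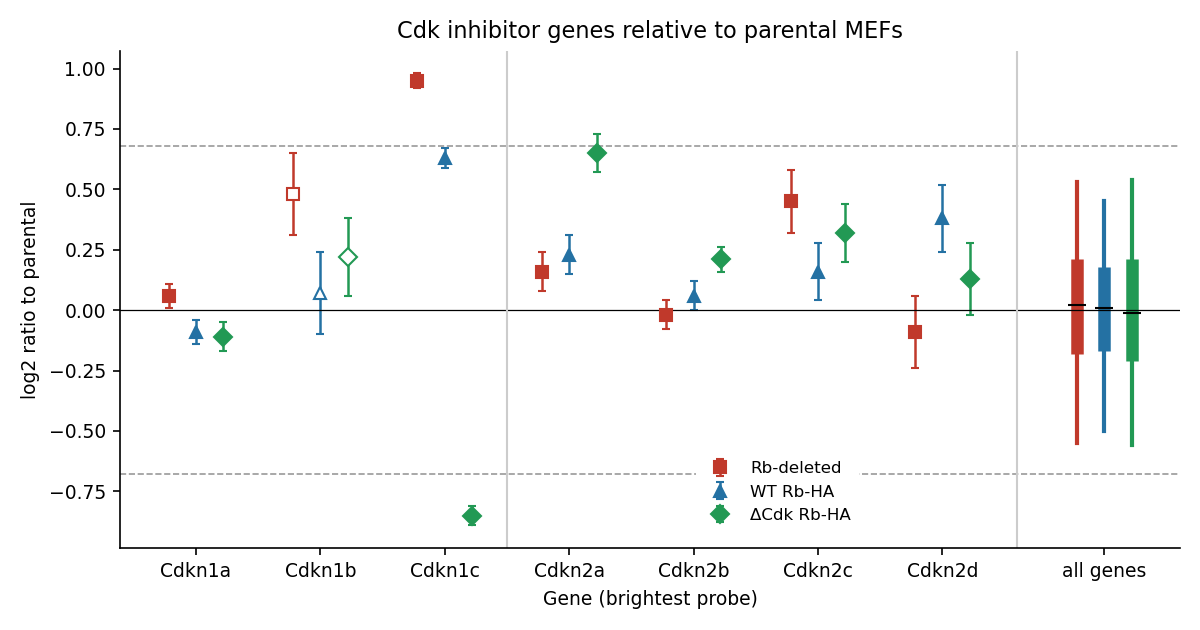
log2 ratio to the parental array (vertical axis) of each Cdk inhibitor gene, at its brightest probe (horizontal axis), with bead standard errors. Open symbols have an array that did not detect the probe, dashed lines mark 1.6-fold, and at the right the thin bar spans the 5th to 95th percentile of all 12615 genes, the thick bar their quartiles and the tick their median. Only Cdkn1c lies beyond the lines, at 0.95 and -0.85.

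The Cip/Kip and Ink4 families were then set side by side. Relative to parental, the median log2 ratio in Rb-deleted MEFs was 0.48 over the 3 Cip/Kip genes and 0.07 over the 4 Ink4 genes. In WT Rb-HA MEFs the medians were 0.07 and 0.20, and in ΔCdk Rb-HA MEFs -0.11 and 0.27. Over all genes the medians were 0.02, 0.01 and -0.01. The difference of Cip/Kip minus Ink4 was thus 0.40, -0.13 and -0.38 on the 3 arrays. The first of these fell to 0.21 without background correction and the others moved to 0.07 and -0.75 without Cdkn1b, so that the order of the families in WT Rb-HA MEFs depends on 1 dim gene. With so few genes each median is that of 1 or 2 genes, the Cip/Kip median in Rb-deleted MEFs being that of Cdkn1b, which the parental array did not detect. All 4 Ink4 genes were above parental in WT Rb-HA and in ΔCdk Rb-HA MEFs, the latter by 0.13 to 0.65, but none passed 1.6-fold. In WT Rb-HA MEFs Cdkn2b, at 0.06, and Cdkn2c, at 0.16, were within 2 bead standard errors. So was Cdkn2d in ΔCdk Rb-HA MEFs, at 0.13. Of all 12615 genes, 6474 were above parental in WT Rb-HA and 6172 in ΔCdk Rb-HA MEFs.

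The comparison of ΔCdk Rb-HA with Rb-deleted MEFs does not use the parental array. In it 1 of 3 Cip/Kip genes, Cdkn1c, and 0 of 4 Ink4 genes passed 1.6-fold. Of all genes 4.26% passed, from which counts of 0 or 1 cannot be set apart. Values of the 3 Cip/Kip genes were below 0, from -0.18 to -1.79, with Cdkn1b, at -0.26, within 2 bead standard errors. Of the 4 Ink4 genes 3 had values above 0, the highest being Cdkn2a at 0.48, and Cdkn2d, at 0.21, was within 2 bead standard errors. Over all genes 6857 were below 0 and 5731 above.

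Kinases that these inhibitors act on were counted next, with their cyclins. Of 5 genes for the Ink4 targets Cdk4 and Cdk6 and for their partners, the D-type cyclins, 0 passed 1.6-fold in any comparison. This count cannot be set apart from the 1.02% to 5.87% of all genes that passed. Of the 5 analysed genes for targets of Cip/Kip proteins, 3 were higher than parental after Rb deletion alone, 1 with WT Rb-HA and 3 with ΔCdk Rb-HA, and none was lower, where 270, 112 and 325 of all 12615 genes were higher. Medians of their log2 ratios were 0.68, 0.28 and 0.76. Ccne1, for cyclin E1, had log2 ratios to parental of 1.31 (0.14), 0.71 (0.15) and 1.13 (0.14) on the 3 arrays in that order. Ccne2, for cyclin E2, went undetected in parental MEFs and was higher in ΔCdk Rb-HA than in WT Rb-HA MEFs by 1.02 (0.13). In WT Rb-HA relative to Rb-deleted MEFs Ccne2 was lower, at -0.72 (0.13). Each is the only call of these 5 genes in its comparison, where 1.85% and 1.02% of all genes passed, from which 1 call cannot be set apart. Cdc2a, an older symbol of Cdk1, was at 0.52 (0.06), 0.28 (0.07) and 0.76 (0.07), and Cdk2, named after its values were seen and on the line of the filter in Rb-deleted MEFs, at 0.68, 0.25 and 0.40.

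Factors known to act on these genes were counted in the same way, beside the 5.12%, 3.35% and 5.87% of all genes that passed the filter compared to parental, from which counts of 0 or 1 in lists this short cannot be set apart. Of 19 analysed regulators of the Cdkn2a and Cdkn2b locus, among them Polycomb proteins and transcription factors, only Ezh2 passed the filter compared to parental. Ezh2, the methyltransferase of Polycomb repressive complex 2, was at 1.06 (0.11), 0.74 (0.12) and 1.08 (0.11) on the 3 arrays. Medians of the list were 0.05, 0.05 and -0.10. Of 9 regulators of Cip/Kip transcription 0 passed compared to parental. Below parental were 7 of them in Rb-deleted, 6 in WT Rb-HA and all 9 in ΔCdk Rb-HA MEFs, at medians of -0.05, -0.21 and -0.37. Of all 12615 genes, 5996, 6127 and 6419 were below parental on these arrays. Of 9 genes for the turnover of Cip/Kip proteins 1 passed, Skp2, the ligase subunit that marks p27Kip1 for destruction, named after its values were seen, at 0.69 in Rb-deleted MEFs. Of 8 pocket protein and E2F genes, Rb1 was lower on all 3 arrays, and E2f1 was higher in Rb-deleted MEFs at 1.15 (0.07) and in ΔCdk Rb-HA MEFs at 0.82 (0.07). Rbl1, for p107, named after its values were seen, was also higher in Rb-deleted MEFs, at 0.85. Comparisons that leave out the parental array add calls that were likewise named after their values were seen. Each is the only call of its list in its comparison, 1 of 19, 9 or 8 genes, and the 9 turnover genes add 0. Of all genes, 4.26% passed with ΔCdk Rb-HA set against the deletion and 1.85% with it set against WT Rb-HA. With WT Rb-HA set against the deletion, 1.02% did. Single calls in lists this short cannot be set apart from these shares either. In ΔCdk Rb-HA MEFs, Bmi1, of the locus regulators, was higher at 0.71 relative to Rb-deleted MEFs, and Cbx8 higher at 0.77 relative to WT Rb-HA MEFs. Tgfb1, of the regulators of Cip/Kip transcription, was lower there at -0.72 relative to Rb-deleted MEFs. E2f4 was lower in ΔCdk Rb-HA MEFs than in both, at -0.76 each, and Rbl1 lower in WT Rb-HA than in Rb-deleted MEFs at -0.87.

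Targets of p53 other than Cdkn1a were counted last. Of 19 analysed, 0 passed 1.6-fold in any comparison, which is near the 1.02% to 5.87% of all genes that did, and relative to parental their median log2 ratio was 0.01, 0.02 and -0.14 on the 3 arrays. All 4 cultures had received doxorubicin, so that these arrays do not show what it induced. Cdkn3 and Cdkn2aipnl, which share part of the name but belong to neither family, passed in no comparison.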

How the data were processed

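The authors deposited 1 table for the 4 arrays, with a summarized intensity for every probe (mean over beads, linear scale, not normalized between arrays), a detection p-value, the number of beads and the standard error over them. Software and background handling before deposit are not given in the sources used here. No column of sample values was left unused. Groups came from the labels, and the doxorubicin treatment from the study's methods.

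Background was corrected in limma 3.58.1 (R 4.3.3) by normexp with detection p-values and an offset of 16, followed by quantile normalization of the arrays and a log2 transformation. The offset pulls ratios of dim probes toward 0. Probes were analysed if at least 1 array gave a detection p-value below 0.01, and the brightest probe stood for its symbol. Bead standard errors were carried through each array's mapping from intensity to normalized value and combined over both arrays. Python 3.11.15, numpy 2.4.6, pandas 2.3.3 and matplotlib 3.10.9 did the rest. Calculations were tested on simulated data, with noise set by the bead standard errors. Of simulated probes with a parental intensity over 100, 88.6% of 2-fold decreases and 100% of 2-fold increases passed 1.6-fold. At 100 or less, 36.7% and 87.1% did, so that the filter misses more changes of dim genes such as Cdkn1b and Cdkn2d. The number of arrays limits the precision. The members, the gene lists and the tests were chosen with earlier results of these data known.

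Named individually were every probe of the 7 genes, Rb1, at most the 4 largest changes of each list past 1.6-fold with and without background correction, and the 3 genes nearest in profile to any member that was detected on all 4 arrays and spanned 1.6-fold. Other genes are marked where they appear. All 7 genes matched the RefSeq table of GRCm38.p6 by Entrez number. Genome positions in the array table do not name their build and are not given.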

Additional observations from a re-analysis of the deposited data

How the results depend on the processing

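Of 288 log2 ratios of single genes recomputed under another background correction, normalization, detection filter or probe rule, 27 moved by more than 1 bead standard error and 261 did not. None of those past the filter changed sign, but 2 others did: Cdkn2b in WT Rb-HA MEFs relative to parental, from 0.06 to -0.02 without normalization between arrays, and Cdkn2c in ΔCdk relative to WT Rb-HA MEFs, from 0.16 to -0.01 with the mean of all probes. Cdkn1c stayed between 0.93 and 0.96 in Rb-deleted MEFs and between -0.89 and -0.82 in ΔCdk Rb-HA MEFs relative to parental. Over the background and scaling methods the p19Arf probe stayed between 0.67 and 0.76 on the 3 arrays, so that it lies on the 1.6-fold line, and the p16Ink4a probe between 0.02 and 0.06 in Rb-deleted and 0.70 and 0.79 in ΔCdk Rb-HA MEFs.

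Counts of changed Cdk inhibitor genes moved with the fold. At 1.5-fold the count was 1 in WT Rb-HA MEFs (Cdkn1c) and 2 in ΔCdk Rb-HA MEFs (Cdkn1c and Cdkn2a) compared to parental, and at 2-fold it was 0 in Rb-deleted and 0 in ΔCdk Rb-HA MEFs. With the mean of all analysed probes of a gene, it was 2 in ΔCdk Rb-HA MEFs, again with Cdkn2a. The Cip/Kip minus Ink4 difference depended most on dim genes. In Rb-deleted MEFs it was 0.21 without background correction and 0.16 with an offset of 50. With genes detected on all 4 arrays, which leaves out Cdkn1b, it was 0.07 in WT Rb-HA and -0.75 in ΔCdk Rb-HA MEFs, and with the mean of all probes it was -0.31 in WT Rb-HA MEFs. No paired analysis was possible because each group has 1 array, and no array could be left out. Signal over background limits Cdkn1b, Cdkn2c and Cdkn2d most.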
